A study of Mus musculus with 6 samples.

Results

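The nuclear-encoded subunits of the respiratory chain and of ATP synthase were followed in mouse embryonic stem (ES) cells in which the human gene WBSCR1 was switched on. Members were all probe sets whose platform annotation gave a single symbol for a subunit of complex I (Nduf), II (Sdh), III (Uqcr and Cyc1), IV (Cox4 to Cox8) or V (Atp5), or for cytochrome c (Cycs), with the Ndufaf assembly factors left out. This gave 169 of the 45037 probe sets tested and 83 of 18193 genes, of which 33 belonged to complex I, 4 to complex II, 9 to complex III, 1 to cytochrome c, 19 to complex IV and 17 to complex V. Ndufa4 and its paralog Ndufa4l2 were counted with complex IV, where the Ndufa4 protein sits. WBSCR1, called Eif4h in the mouse, encodes a factor of translation initiation. Its coding sequence, with a 3xFLAG tag and without untranslated regions, had been placed at the ROSA26 locus of the EBRTcH3 line behind a promoter that tetracycline shuts off. Cells of 3 recombinant clones, A1, A3 and A4, were profiled after 24 h without tetracycline (induced, 3 arrays) and with tetracycline (control, 3 arrays), on 1 expression array for each clone and condition. All 6 cultures were grown on gelatin in serum with leukemia inhibitory factor. Effects of the transgene and of taking tetracycline away cannot be told apart in this design, each clone is a single clone, and a difference between clones rests on 2 arrays of a clone. Of the 6 probe sets for mouse Eif4h none differed by the test of induction, and whether any of them can detect the human sequence was not tested.

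The respiratory chain sits in the inner mitochondrial membrane. Complex I takes electrons from NADH and complex II takes them from succinate, complex III passes them on through cytochrome c, and complex IV gives them to oxygen. The protons pumped on the way drive complex V, ATP synthase. All genes followed here lie in the nucleus, and the few subunits encoded by mitochondrial DNA were not among the members. Mouse ES cells of this kind carry mitochondria of an immature form and rely on both glycolysis and respiration. Several complex IV subunits exist as paired isoforms, 1 found in most tissues and 1 found mainly in muscle, lung or testis.

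Values are log2 signals after robust multiarray averaging (RMA). Array medians over all probe sets were 5.11 to 5.19 log2, and the 8 ES cell markers read 10.39 to 14.07 log2 on the 6 arrays, whereas 5 of 7 fibroblast markers averaged under 5 log2. With 1 probe set for each gene, the one with the highest mean, the median level of the subunit genes was 11.33 log2, against 6.30 log2 over all genes, and 71 of 83 averaged at least 10 log2. Only Ndufb4 and Cox7b2 averaged under 5 log2, and at the level of probe sets 17 of 169 did. For Ndufb4, Ndufa11, Ndufs6 and 3 other genes, 9 further probe sets carried several symbols and were left out, so the dim set read for Ndufb4 says little of that gene. Signals of different probe sets depend on their probes, so these levels are descriptions only, and no order of genes by level is drawn.

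No subunit changed on induction by the test used. Of 169 member probe sets, 0 passed an adjusted p of 0.05 by limma with Benjamini-Hochberg adjustment over all probe sets, as did 0 of all 45037 (0%). At an unadjusted p of 0.05, 0 members passed by limma, where 1.5% of all probe sets did. With the clones as a replicate block 0 members passed the adjusted threshold and 3 the unadjusted one, which 3.42% of all probe sets did. With the methods' t-test the members' counts were 0 and 1, and 2.43% of all probe sets passed at the unadjusted p. The lowest adjusted p among the members was 0.999942. The 95% interval of a gene's change reached, at the median, 0.26 log2 to either side of the estimate. This reach ran from 0.20 log2 for Cox7a2l to 1.02 log2 for Ndufa4l2. The intervals are from the fit with condition only, so they include the spread between clones. They are not adjusted for the number of probe sets. Changes within these intervals were not resolved by that fit with 3 arrays a group.

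The members' mean differences were small and mostly positive. Of the 83 genes, 59 had a higher mean in induced arrays and 24 a lower one, with a median of 0.032 log2, against 0.0028 log2 over all genes and 0.0090 log2 over the 1909 genes at 10 log2 or more. By complex the medians were 0.048 log2 for complex I, 0.078 for II, 0.044 for III, 0.0096 for IV and 0.015 for V, and Cycs differed by 0.079 log2. Over all probe sets of complexes I to V the medians were 0.054, 0.078, 0.044, 0.027 and 0.010 log2. Complex IV includes isoforms restricted to certain tissues, some of them dim, so the complexes are not fully alike in make-up. The overall median was -0.020 log2 without the induced A3 array and -0.0023 log2 without the control A4 array, so leaving out a single array turned its sign.

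The clones gave medians of different sign. In A1, 26 of 83 subunit genes read higher in the induced array and the median difference was -0.053 log2. In A3, 67 of 83 did, with a median of 0.076 log2, and in A4 61 of 83, with 0.063 log2. The medians over all genes were -0.022 log2 in A1, 0.019 log2 in A3 and 0.0045 log2 in A4. Complexes I, III and V had this pattern, with medians of -0.056, -0.043 and -0.061 log2 in A1, of 0.068, 0.14 and 0.063 log2 in A3 and of 0.10, 0.046 and 0.058 log2 in A4. Complex IV had -0.046 log2 in A1, 0.080 log2 in A3 and -0.0042 log2 in A4. Complex II had 0.015 log2 in A1, 0.094 log2 in A3 and 0.049 log2 in A4. Of the 83 genes, 14 kept 1 direction in all clones (16.9%), against 21.4% of all genes and 15.2% of the 1909 genes at 10 log2 or more. With 1 array pair in each clone, the difference between clones in response was not tested. The 18S control probe sets, which read ribosomal RNA, were 1.36 log2 higher in the induced A1 array than in its control, 0.66 log2 higher in A3 and 0.0030 log2 higher in A4, and their part in these differences was not tested.

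**Figure D1:**
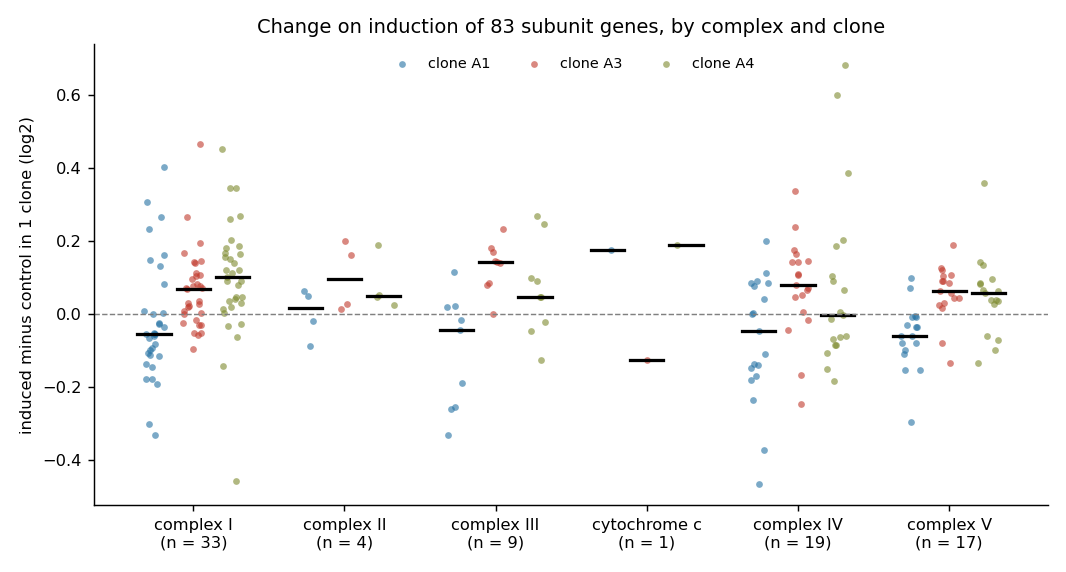
Induced minus control signal (log2) of each of 83 subunit genes in clones A1, A3 and A4, grouped by complex, with 1 point for each gene and a black bar at the median. In complexes I, III, IV and V the A1 medians lie below 0 and the A3 medians above it, and the points of every clone spread to both sides of 0 in complexes I and IV.

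Types of probe set differed in their A1 medians. Among members at 5 log2 or more, the 69 plain probe sets, designed to match 1 transcript, had a median of -0.066 log2 in A1, while the 39 ending in _a_at, which match several transcripts of a gene, had 0.042 log2 and the 27 ending in _x_at, which allow cross-matching, had 0.074 log2. The 17 ending in _s_at, which match transcripts of several genes, had -0.030 log2. All probe sets at that level had medians of -0.0055, 0.015, 0.065 and 0.049 log2 for the same types. In A3 and A4 each of the 4 types of member had a positive median, of 0.071, 0.016, 0.056 and 0.084 log2 in A3 and of 0.063, 0.089, 0.11 and 0.047 log2 in A4.

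Within complex I, the NADH dehydrogenase, the smallest unadjusted p belonged to Ndufs5 and Ndufb10, both accessory subunits that surround the catalytic core. Ndufs5 read 9.51, 9.45 and 9.74 log2 in induced A1, A3 and A4, against 9.58, 9.43 and 9.29 log2 in their controls. The difference of 0.13 ± 0.12 log2 (SE, n = 3 each, limma unadjusted p = 0.302) was carried by A4, at 0.45 log2, and the groups overlapped. Ndufb10 read 10.91, 10.75 and 10.89 log2 in induced arrays, against 10.76, 10.85 and 10.62 log2 in control arrays, and the sign in A3 was opposite to that in A1 and A4. The 6 core subunits, which hold the flavin and iron-sulfur centers, had a median of 0.0065 log2 and the 27 accessory ones 0.048 log2.

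In complex II, succinate dehydrogenase, the membrane anchors Sdhc and Sdhd differed by 0.088 ± 0.10 and 0.078 ± 0.090 log2 (SE). Sdhc read 10.84, 10.76 and 11.03 log2 in induced arrays, against 10.78, 10.74 and 10.85 log2 in control arrays, and was higher in the induced array of each clone. In complex III, Uqcrfs1, the Rieske iron-sulfur protein, read 11.31, 11.41 and 11.27 log2 in induced arrays, against 11.29, 11.33 and 11.22 log2 in control arrays. The difference of 0.049 ± 0.091 log2 (SE) had the same sign in each clone. Uqcrc2, a core protein of the complex, differed by 0.052 ± 0.099 log2 and had the opposite sign in A4.

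Cycs, the mobile carrier between complexes III and IV, read 12.30, 11.83 and 12.29 log2 in induced A1, A3 and A4, against 12.12, 11.96 and 12.10 log2 in their controls. A3 thus had the lowest value of either condition, and its change of -0.13 log2 stood against 0.18 and 0.19 log2 in A1 and A4. In ATP synthase, Atp5l, a membrane subunit near the dimer interface, and Atp5e, the epsilon subunit of the central stalk, both differed by 0.065 log2 on average, with SEs of 0.099 and 0.12 log2.

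The largest mean difference among the 83 genes was that of Cox7a1, the heart and skeletal muscle isoform of complex IV subunit VIIa. Its signal was 7.31, 7.49 and 7.89 log2 in induced A1, A3 and A4, against 7.23, 7.34 and 7.21 log2 in their controls. The induced value was above the control value in all 3 clones, by 0.68 log2 in A4 and by 0.085 and 0.14 log2 in A1 and A3, and the groups overlapped. The difference was 0.30 ± 0.15 log2 (SE, 95% interval -0.053 to 0.66, limma unadjusted p = 0.0846, adjusted p = 0.999942), and it was 0.14 log2 without the induced A4 array. The isoforms expressed in most tissues, Cox7a2 and the related Cox7a2l, differed by 0.034 and 0.063 log2. None of the 8 muscle markers, which include the myogenic factors Myod1 and Myog, passed the test, and their median change was -0.0093 log2. Cox8c, a testis isoform of subunit VIII, had a negative difference of -0.10 ± 0.11 log2 (SE), with a negative sign in each clone. Its dimmer probe set, at 5.31 log2, had the largest difference of any member probe set, -0.33 ± 0.15 log2 (limma unadjusted p = 0.0635), from changes of -0.38 log2 in A1, 0.031 log2 in A3 and -0.64 log2 in A4.

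Between clones a few subunits were called. An F test over the clones, fitted with condition as a further term, called 2 of 169 member probe sets (1.18%), against 5.54% of all probe sets. Clone A3 was then set against the mean of A1 and A4. This contrast called 3 member probe sets higher in A3 (1.78%), where 3.89% of all probe sets were, and 2 lower (1.18%), where 5.68% of all were. The share of members called was thus below the background in both directions. The contrast was chosen knowing that A3 stands apart from A1 and A4 in these data.

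Most members nevertheless leaned upward in A3. Of 83 genes, 60 had a positive difference, with a median of 0.10 log2, against 0.038 log2 over all genes and -0.016 log2 over the 1909 genes at 10 log2 or more. Over all 169 member probe sets, 111 had a positive difference, with a median of 0.087 log2. Of the 45 genes with over 1 probe set at 5 log2 or more, 27 kept 1 sign across them and the rest did not. At that level the plain, _a_at, _x_at and _s_at member sets had medians of 0.098, 0.066, 0.059 and 0.20 log2. All probe sets had -0.0026, 0.026, 0.0039 and -0.011 log2 for these types. Both A3 arrays read above the other 4 arrays for 56 of 169 member probe sets (33.1%), against 19.8% of all probe sets. Both lay below the other 4 for 17 members (10.1%), against 16.6% of all. The median difference was 0.097 log2 in complex I, -0.0087 in II, 0.16 in III, 0.13 in IV and 0.094 in V. Without the control A3 array the median over all members was 0.17 log2, that of complex I 0.16 log2 and that of complex IV 0.20 log2. Complex III moved to 0.085 log2 without the induced A3 array and 0.10 log2 without the induced A1 array. Complex IV moved to 0.060 log2 without the induced A1 array, 0.064 log2 without the induced A3 array and 0.051 log2 over all its probe sets, and complex V to 0.061 log2 without the induced A3 array. In complex V all 5 genes of the F1 sector, made of the catalytic head and the central stalk, had positive differences, with a median of 0.20 log2. The 18S control probe sets averaged 0.77 log2 higher in A3, though the induced A1 array (7.03 log2) read above the control A3 array (6.61 log2). Their part in this lean was not tested.

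**Figure D2:**
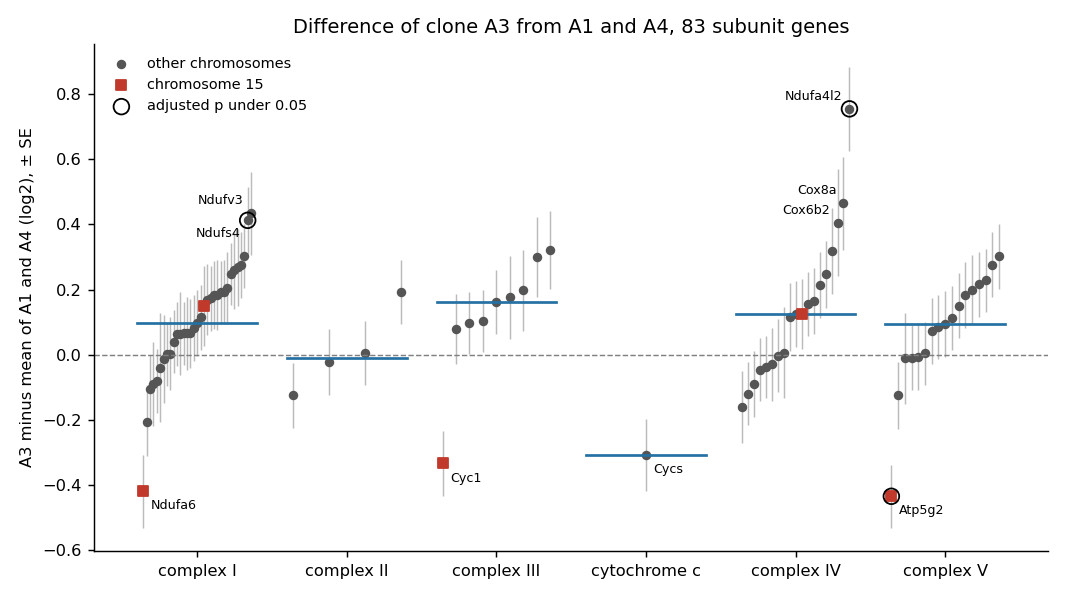
Difference of clone A3 from the mean of A1 and A4 (log2, ± SE) for each of 83 subunit genes, ordered by size within its complex, with a blue line at the median of the complex. Squares mark the 5 genes on chromosome 15, and circles mark genes with an adjusted p under 0.05. Atp5g2, Ndufa6 and Cyc1, all on chromosome 15, are the 3 lowest genes at -0.43, -0.42 and -0.33 log2, and Ndufa4l2 is the highest at 0.75 log2.

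Ndufa4l2 was the gene with the largest positive difference in A3. It is a paralog of the complex IV subunit Ndufa4, and in human cells it is known as a gene induced by low oxygen through HIF1A. Its single probe set read 9.11 log2 in the induced and 9.04 log2 in the control A3 array. The readings were 7.86 and 7.66 log2 in A1 and 9.18 and 8.58 log2 in A4, so A3 stood clear of A1 but not of A4. A3 was 0.75 ± 0.13 log2 above the mean of both (SE, limma adjusted p = 0.0110). Against A1 alone the difference was 1.31 log2 (adjusted p = 0.00355) and against A4 alone 0.19 log2 (adjusted p = 0.532). The call was lost without the control A3 array (adjusted p = 0.0894) or the induced A1 array (0.0606). On induction Ndufa4l2 read higher in each clone, by 0.20 log2 in A1, 0.070 log2 in A3 and 0.60 log2 in A4. With the replicate block the induced minus control difference of 0.29 log2 had an unadjusted p of 0.0447 in limma and an adjusted p of 0.999861. Ndufa4 itself was not called, and read 12.00 and 11.86 log2 in induced and control A3, 11.78 and 11.78 log2 in A1 and 11.71 and 11.79 log2 in A4.

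Ndufs4 and Cox6a1 each had a probe set called higher in A3. Ndufs4, an accessory subunit of complex I whose loss in mice causes a Leigh-like encephalopathy, read 10.43 and 10.35 log2 in induced and control A3. The same probe set read 9.92 and 10.003 log2 in A1 and 10.07 and 9.92 log2 in A4. Both A3 arrays lay above the other 4, with a difference of 0.41 ± 0.10 log2 (SE, limma adjusted p = 0.0448). Its other probe sets at 5 log2 or more differed by 0.24 and 0.21 log2 and were not called. Cox6a1, the form of complex IV subunit VIa found in most tissues, was called on its second probe set, which read 12.12 and 12.03 log2 in induced and control A3, 11.63 and 11.68 log2 in A1 and 11.78 and 11.59 log2 in A4 (0.40 ± 0.10 log2, adjusted p = 0.0480). Its brightest probe set differed by 0.21 log2 (adjusted p = 0.246). Both calls were lost when array medians were subtracted (adjusted p = 0.0563 for Ndufs4 and 0.0615 for Cox6a1) and without any single array, at adjusted p of 0.0719 to 0.257 and 0.0769 to 0.252.

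The 2 probe sets called lower both belonged to Atp5g2, which encodes subunit c of ATP synthase. Subunit c forms the rotating ring of the membrane part, and 3 genes, Atp5g1, Atp5g2 and Atp5g3, encode the same mature protein behind different mitochondrial import sequences. The bright Atp5g2 probe set read 12.10 and 12.05 log2 in induced and control A3, 12.48 and 12.52 log2 in A1 and 12.54 and 12.50 log2 in A4. The A3 pair lay below the others without overlap (-0.43 ± 0.096 log2, SE, limma adjusted p = 0.0301). A dimmer probe set read 4.62 and 4.34 log2 in A3, 5.36 and 5.67 log2 in A1 and 5.47 and 5.42 log2 in A4 (-1.002 ± 0.13 log2, adjusted p = 0.00433). A further probe set, at 2.33 log2, was not called. Without each single array in turn the dim set kept its call (adjusted p 0.00906 to 0.0367) and the bright set lost it (0.0809 to 0.159). Atp5g1 and Atp5g3 did not follow. Their differences were 0.0044 and -0.0058 log2, with readings of 11.48 to 11.59 log2 and of 12.92 to 13.05 log2 over the 6 arrays.

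**Figure D3:**
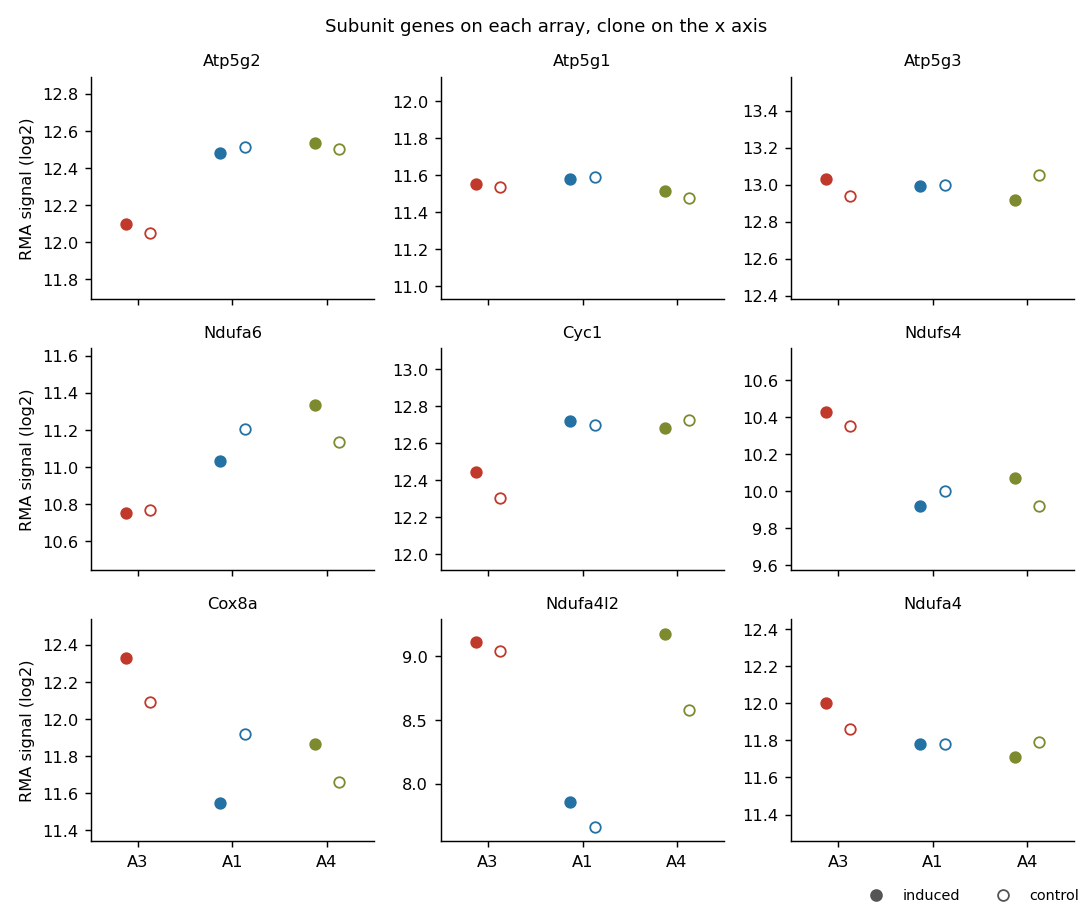
RMA signal (log2) on each of the 6 arrays for 9 subunit genes, with the clones on the x axis, filled circles for induced and open circles for control arrays, and a y scale of its own in each panel. Atp5g2, Ndufa6 and Cyc1 are lower on both A3 arrays than on the other 4, Ndufs4 and Cox8a are higher, and Ndufa4l2 is low on both A1 arrays.

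Starts of the c-subunit genes are shown because their products are alike while their levels in A3 were not, and those of Ndufa6, Ndufs4 and Cox8a because these stood at the ends of the A3 distribution. Sequences are from RefSeq promoters of build GRCm38.p6, which held 67 of the 83 genes, and run 5′ to 3′ on the gene's strand over 150 bases, from 100 before the annotated start to 50 after it. Capitals mark matches to a core of the NRF1 site (GCATGCGC or its reverse complement GCGCATGC), of the YY1 site (AAGATGGCG or CGCCATCTT) or of the ETS site read by GABPA (CCGGAAG or CTTCCGG).
Atp5g2 (chr15:102670998-102671147, minus strand): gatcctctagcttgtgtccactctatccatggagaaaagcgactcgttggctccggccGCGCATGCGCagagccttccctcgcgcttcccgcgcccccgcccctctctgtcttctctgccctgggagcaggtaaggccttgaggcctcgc
Atp5g1 (chr11:96075582-96075731, minus strand): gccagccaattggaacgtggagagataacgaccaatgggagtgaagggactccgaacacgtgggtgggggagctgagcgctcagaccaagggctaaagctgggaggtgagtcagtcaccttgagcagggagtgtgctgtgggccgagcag
Atp5g3 (chr2:73911277-73911426, minus strand): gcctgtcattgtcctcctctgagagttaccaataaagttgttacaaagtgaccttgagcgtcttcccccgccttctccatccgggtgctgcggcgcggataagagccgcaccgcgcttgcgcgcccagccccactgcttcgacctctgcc
Ndufa6 (chr15:82354242-82354391, minus strand): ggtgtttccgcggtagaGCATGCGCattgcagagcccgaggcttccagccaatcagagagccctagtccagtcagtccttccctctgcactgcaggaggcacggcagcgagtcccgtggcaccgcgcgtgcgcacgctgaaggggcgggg
Ndufs4 (chr13:114388045-114388194, minus strand): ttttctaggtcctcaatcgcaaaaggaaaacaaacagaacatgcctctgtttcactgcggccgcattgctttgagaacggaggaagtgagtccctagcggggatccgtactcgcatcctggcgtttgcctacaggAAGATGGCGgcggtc
Cox8a (chr19:7217567-7217716, minus strand): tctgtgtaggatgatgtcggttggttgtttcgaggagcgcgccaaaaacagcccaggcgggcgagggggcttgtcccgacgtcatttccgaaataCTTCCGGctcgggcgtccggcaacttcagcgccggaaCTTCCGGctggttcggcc
The Atp5g2 start held the NRF1 core on both strands, with the 2 matches overlapping, and Ndufa6 held it on 1 strand. The stretches of Atp5g1 and Atp5g3 held none of these letters. Ndufs4 held the YY1 core 35 bases from its start and Cox8a held the ETS core 2 times.

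The other genes at the low end of A3 shared a chromosome with Atp5g2. Ndufa6, an accessory subunit of complex I, read 10.75 and 10.77 log2 in induced and control A3, 11.03 and 11.21 log2 in A1 and 11.34 and 11.13 log2 in A4 (difference -0.42 ± 0.11 log2, SE, limma adjusted p = 0.0586). Cyc1, the cytochrome c1 of complex III, read 12.44 and 12.30 log2 in A3, 12.72 and 12.70 log2 in A1 and 12.68 and 12.73 log2 in A4 (-0.33 ± 0.10 log2, adjusted p = 0.0826). Neither passed the threshold, though the A3 readings of both lay below all others. Atp5g2, Ndufa6 and Cyc1 were the 3 lowest of the 83 genes, and all 3 lie on chromosome 15. The remaining members of that chromosome, Cox6c and Ndufb9, differed by 0.13 and 0.15 log2 on their brightest probe sets and were not called. Their other probe sets gave -0.22 log2 for Cox6c and 0.067 and -0.078 log2 for Ndufb9, so neither gene had a settled sign. The overall median without the 5 genes of chromosome 15 was 0.11 log2.

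The genes of chromosome 15 were then read in their order. RefSeq positions (assembly GRCm38.p6) placed 407 genes averaging at least 6 log2 on it, of which 303 were lower in A3, with a median of -0.28 log2. On the other 19 chromosomes the medians lay between -0.047 log2 (chromosome 14) and 0.042 log2 (X). The share of genes called lower was 6.74% to 18.1% on those, highest on chromosomes 14 (18.1%) and 12 (16.3%), and 36.1% on chromosome 15. With the genes cut by order into blocks of 135, 136 and 136, the median was -0.088 log2 in the first block, -0.40 log2 in the middle and -0.43 log2 in the last. In control arrays alone these were -0.074, -0.41 and -0.47 log2, and in induced arrays alone -0.098, -0.34 and -0.39 log2. Between A1 and A4 the blocks had medians of 0.048, -0.0084 and -0.018 log2. Cox6c and Ndufb9 held places 48 and 91 of 407, in the first block. Cyc1 and Ndufa6 held places 140 and 244, in the middle block, and Atp5g2 place 395, in the last.

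Neighbours of each gene were read as the 10 genes on either side. Around Cyc1, between Gpaa1 and Sharpin, 20 of 20 neighbours were lower in A3, with a median of -0.36 log2. Around Ndufa6, between Smdt1 and Tcf20, 15 of 20 were lower, with a median of -0.36 log2, and around Atp5g2, between Tarbp2 and Calcoco1, 18 of 20, with a median of -0.64 log2. Around Cox6c and Ndufb9 the medians were 0.010 and -0.083 log2, with 10 and 12 of 20 lower. The 3 low subunit genes thus had differences within the range of the genes beside them. Sco2, a copper chaperone for complex IV, and Txn2, the mitochondrial thioredoxin, were read from other gene lists and also lie on that chromosome. They differed by -0.21 log2 (adjusted p = 0.259) and by -0.68 ± 0.097 log2 (SE, adjusted p = 0.00562). Further mitochondrial genes there were not read as a set and went both ways, for example Mrpl13 (0.18 log2) and Tomm22 (-0.52 log2). Copy number of the chromosome was not measured here.

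**Figure D4:**
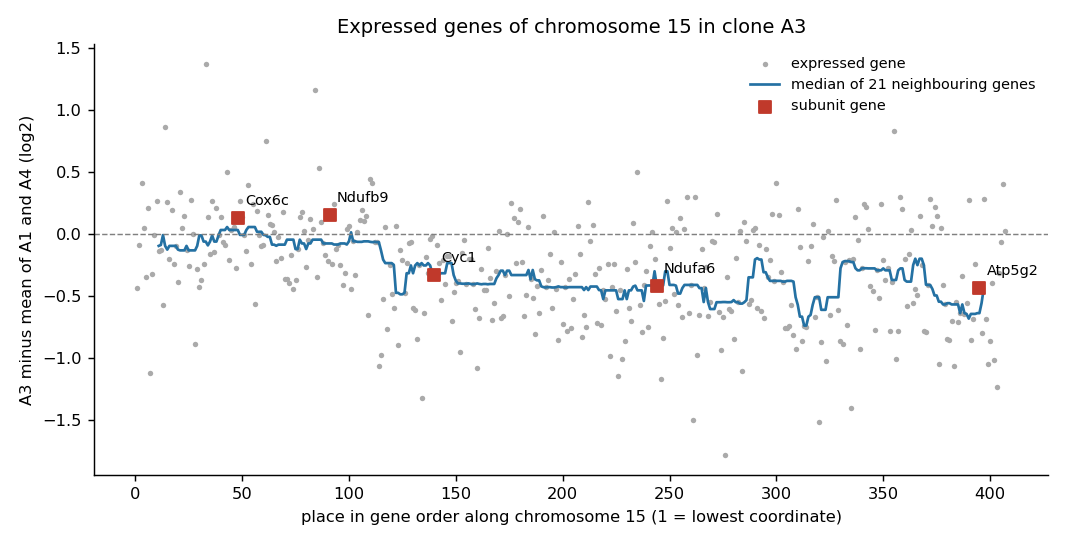
Difference of clone A3 from the mean of A1 and A4 (log2) for 407 genes of chromosome 15 averaging at least 6 log2, placed by gene order from the lowest coordinate, with subunit genes as squares and the running median of 21 genes as a line. The line lies near 0 around Cox6c and Ndufb9 and below 0 around Cyc1, Ndufa6 and Atp5g2.

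Isoform pairs of complex IV were read one by one. Cox4i1, the form of subunit IV found in most tissues, read 13.01 and 12.93 log2 in induced and control A3, 12.65 and 12.79 log2 in A1 and 12.77 and 12.68 log2 in A4 (0.25 ± 0.10 log2). The lung form Cox4i2 stayed at 5.21 to 5.50 log2, near the array medians. For subunit VIa, the muscle form Cox6a2 read 6.09 to 6.27 log2. For subunit VIb, Cox6b1 read 12.43 to 12.70 log2 with a difference of 0.13 log2 in A3. The testis form Cox6b2 was well above the array medians and uneven among clones. Its readings were 9.54 and 9.47 log2 in induced and control A3, 8.63 and 9.10 log2 in A1 and 9.53 and 9.14 log2 in A4, so A3 differed by 0.41 ± 0.16 log2 (SE, adjusted p = 0.179) and the A3 control lay below the induced A4 array.

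For subunit VIIb, only Cox7b2, the testis form, was among the members, and it read 3.27 to 3.60 log2. Cox8a, the form of subunit VIII found in most tissues, read 12.33 and 12.09 log2 in induced and control A3, 11.55 and 11.92 log2 in A1 and 11.86 and 11.66 log2 in A4. Both A3 arrays were above the other 4 (0.47 ± 0.14 log2, SE, adjusted p = 0.0892), and a second probe set differed by 0.45 log2 (adjusted p = 0.0565). The muscle form Cox8b read 4.92 to 5.10 log2 and the testis form Cox8c 7.31 to 7.66 log2, with A3 differences of -0.090 and 0.16 log2. Of the tissue-restricted forms, Cox6b2, Cox7a1 and Cox8c thus gave signals above 7 log2 on all arrays. The 6 germ cell markers averaged 5.59 and 5.55 log2 in induced and control A3 and 6.03 to 6.17 log2 on the other arrays, and Tnp1, a marker of late spermatids, averaged 3.38 log2. Dazl and Mael, early germ cell genes also active in ES cells, were lower in A3, by -1.15 and -1.63 log2 (adjusted p = 0.00235 and 0.000372), and the part of germ cell genes in these values was not tested.

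Between A1 and A4 no subunit was called. None of the 169 member probe sets was called between them (0 at adjusted p, against 0.0178% of all probe sets), and 6 passed an unadjusted p of 0.05 by limma (3.55%), against 4.34% of all. The median difference of A1 from A4 was -0.0081 log2 over the 83 genes, against 0.0100 log2 over all genes. Ndufa4l2 had the smallest p, with A1 lower than A4 by -1.12 ± 0.15 log2 (SE, adjusted p = 0.25), and both A1 arrays lay below both A4 arrays. Cox6b2 came next among bright probe sets, at -0.47 ± 0.19 log2 (adjusted p = 1), and its readings in A1 and A4 did not overlap only because the A1 control, at 9.10 log2, lay just under the A4 control, at 9.14 log2.

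Several regulators of these genes were lower in A3. NRF1 and GABPA bind the promoters of many respiratory genes, YY1 and HCFC1 act at many of the same promoters, and PGC-1-beta, the product of Ppargc1b, is a coactivator of mitochondrial gene programs. Of 13 such regulators, 4 were called lower in A3 and 0 higher, with a median of -0.15 log2, where 6.32% of all genes were called lower and 5.13% higher. Yy1 read 10.39 and 10.51 log2 in induced and control A3, 11.64 and 11.39 log2 in A1 and 11.50 and 11.52 log2 in A4 (-1.06 ± 0.11 log2, SE, limma adjusted p = 0.00189), and all 4 of its probe sets were called lower. Ppargc1b read 5.31 and 5.42 log2 in A3, 6.94 and 6.55 log2 in A1 and 6.45 and 6.75 log2 in A4 (-1.30 ± 0.15 log2, adjusted p = 0.00233). Nrf1 differed by -0.66 ± 0.097 log2 (adjusted p = 0.00625) and Hcfc1 by -0.52 ± 0.10 log2 (adjusted p = 0.0178). For Nrf1, 2 of 4 probe sets were called lower and 1 differed by 0.095 log2. Gabpa (-0.17 log2), Esrra (0.079 log2) and Tfam (0.070 log2), the packaging factor of mitochondrial DNA, were not called. No regulator was called on induction.

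**Figure D5:**
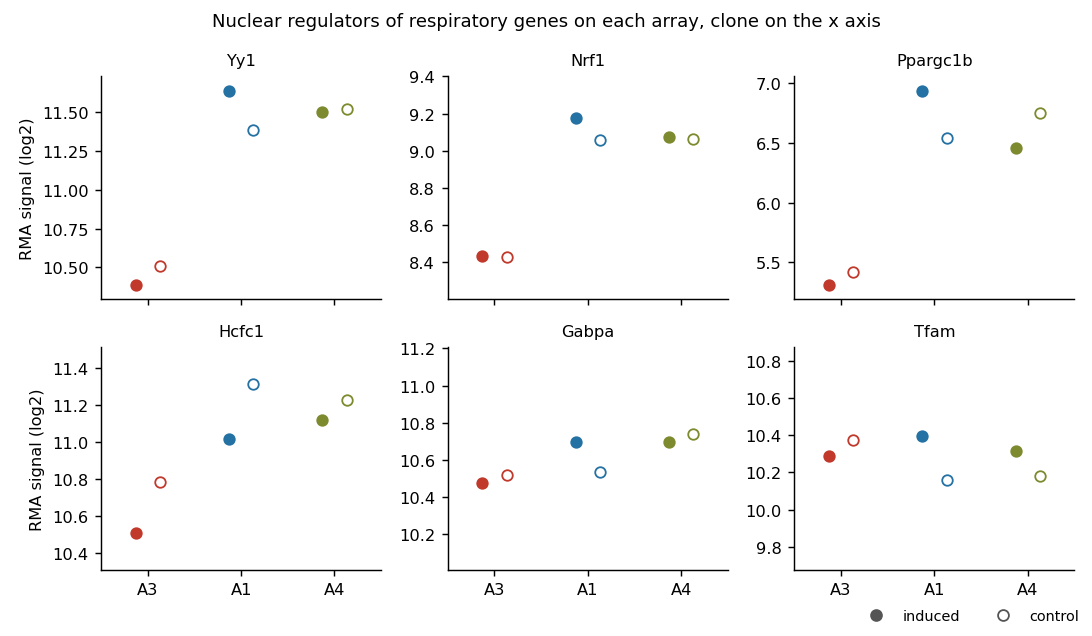
RMA signal (log2) on each of the 6 arrays for 6 nuclear regulators of respiratory genes, with clones on the x axis, filled circles for induced and open circles for control arrays, and a y scale of its own in each panel. Yy1, Nrf1, Ppargc1b and Hcfc1 are lower on both A3 arrays than on the other 4, and Gabpa and Tfam were not called.

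Promoter letters and A3 differences were then set side by side, over the whole windows of 300 bases. The NRF1 core was present in 13.9% of member windows, against 2.71% of all 32851 windows, the YY1 core in 8.33% against 1.40%, and the ETS core in 23.6% against 8.86%. All windows include those of genes not expressed here, whereas most members are bright. Among genes at 5 log2 or more, 581 held the NRF1 core and 9283 did not. For YY1 these counts were 346 and 9518, and for ETS 1923 and 7941. The members' counts at that level were 10 and 55, 6 and 59, and 17 and 48. The 10 members with the NRF1 core had a median A3 difference of 0.043 log2, against 0.13 log2 for the 55 matched members at 5 log2 or more without it. They held Atp5g2, Ndufa6 and Cycs at the low end (-0.43, -0.42 and -0.31 log2) and Uqcr11, Uqcrc1 and Cox6a1 at the high end (0.32, 0.30 and 0.21 log2). Atp5g2 and Ndufa6 lie in the blocks of chromosome 15 that read low in A3, and the part of that region in the median was not tested. The 6 members with the YY1 core, among them Ndufs4 and Atp5j2, all had positive differences, as did 60 of all 81 members at 5 log2 or more (74.1%). The 6 had a median of 0.22 log2, against 0.097 log2 for the 59 without the core. The 17 with the ETS core had 0.18 log2, against 0.084 log2 for 48 without. Over all genes at 5 log2 or more, those with the NRF1, YY1 or ETS core had medians of -0.051, -0.021 and -0.038 log2. Genes without them had 0.014, 0.011 and 0.023 log2, so for YY1 and ETS the order was opposite to that among members. A match is a description of the letters and not of binding.

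Assembly factors of complexes I and IV had negative medians in A3, where the subunits of both had positive ones. Such proteins build the complexes but are not part of them. Of 16 complex I assembly factors, 11 had negative differences (median -0.11 log2) and 3 were called lower, again beside 6.32% of all genes. Nubpl, which delivers iron-sulfur clusters to complex I, read 8.63 and 8.51 log2 in induced and control A3, 9.27 and 9.15 log2 in A1 and 9.55 and 9.40 log2 in A4 (-0.77 ± 0.096 log2, SE, adjusted p = 0.00333). Ndufaf7, a methyltransferase, and Tmem186 differed by -0.59 and -0.52 log2 (adjusted p = 0.00941 and 0.0375). For complex IV, 16 of the 19 factors found of 22 listed had negative differences (median -0.16 log2), and Coa6, a copper chaperone, was called (-0.41 log2, adjusted p = 0.0411). Factors of complexes II, III and V had 0 calls in 15 genes, with medians of -0.12, 0.034 and 0.0065 log2. Slc25a31, an ADP/ATP carrier of germ cells, differed by -1.33 ± 0.10 log2 (adjusted p = 0.000565), whereas the other 8 carriers and channels, including Slc25a5 (0.23 log2) and Vdac1 (-0.042 log2), were not called. On induction none of these genes was called, as no probe set of the array was. Of 16 complex I factors, 15 had positive differences, against 55.7% of all genes at 5 log2 or more. The 16 had a median of 0.084 log2, and 6 of them kept 1 direction in all clones (37.5%), against 20.5% of genes at that level.

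Other markers moved with A3 as well. Of 8 ES cell markers, Klf4 was called lower (-0.51 log2, adjusted p = 0.0384), while Pou5f1 and Sox2 differed by -0.012 and 0.038 log2. Of 5 primitive and visceral endoderm markers, Gata4, Gata6 and Sox7 were called lower, by -0.76, -0.73 and -0.83 log2, where 6.32% of all genes were called lower. In all, 4 of the 5 were lower and 1 was higher, by 0.038 log2. The mean of the list was 4.76 and 4.69 log2 in induced and control A3, against 5.06 to 5.39 log2 on the other arrays. The 5 genes averaged 4.02 to 5.47 log2, around the array medians, so these readings are dim. None of the 8 muscle, 7 fibroblast, 3 neural or 2 mesoderm markers found was called. The part of such cells in the subunit values was not tested, and fewer cells of a type cannot be told apart from less RNA per cell.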

How the data were processed

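The deposited values are log2 signals, made by the authors with RMA in affy (Bioconductor; no version named in the submitters' processing notes). Tests omitted 64 Affymetrix controls. Of 45037 others, 34945 had 1 symbol, 932 several and 9160 none. No depth is defined for arrays, and their number (6) limits the precision.

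Induction was tested with limma 3.58.1 in R 4.3.3 (condition only, two-sided) and clones with condition as a further term, adjusting p-values by Benjamini-Hochberg across every probe set tested, with a threshold of 0.05. Each replicate number is a clone (1, 2 and 3 are A1, A3 and A4), so numbers pair the arrays: deviations of paired arrays correlated at r = 0.313, 0.670 and 0.290. Arrays of A1 and A4 correlated as well across clones (0.369 and 0.348), so the pairing rests on the clone labels. P-values measure the spread between these arrays. Tests were checked on simulated data. The simulation for induction held no differences between clones, so it does not cover their part in the condition-only test. Lists are described by counts and medians with the probe set of highest mean per gene. Chromosome and order came from RefSeq for 18032 genes. Python 3.11.15 and matplotlib 3.10.9 were used.

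Named were the 2 genes of smallest p per complex on induction, members called between clones, complex IV isoforms and the 2 genes of smallest clone p per list. The genes at the ends of the A3 distribution, the chromosome 15 neighbours, promoters, the 10 log2 level and some regulators, assembly factors and markers were added after values were seen. Members and lists were chosen with earlier results of these data known. Alternatives were other normalizations, tests, filters and thresholds, the replicate block and leaving out arrays or clones. Left out were 9 probe sets with several symbols.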

Additional observations from a re-analysis of the deposited data

Results flagged for a closer look

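The change on induction had opposite signs in different clones, with 1 array pair a clone, so the difference was not tested. Over the 83 genes the median was -0.053 log2 in A1, with positive medians in A3 and A4. It was -0.056 log2 in A1 for complex I, -0.043 log2 for complex III and -0.061 log2 for complex V, again with positive medians in A3 and A4.

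For 6 genes a clone read at least 0.2 log2 higher after induction and another at least 0.2 log2 lower. Ndufa10 spanned 0.86 log2 between A1 (0.40 log2) and A4 (-0.46 log2). Cox6b2 spanned 0.85 log2, between A4 (0.39 log2) and A1 (-0.47 log2). Atp5mpl spanned 0.65 log2 between A4 (0.36 log2) and A1 (-0.30 log2), and Cox8a 0.61 log2 between A3 (0.24 log2) and A1 (-0.37 log2). Uqcrq spanned 0.50 log2, between A4 (0.24 log2) and A1 (-0.25 log2). Uqcr10 spanned 0.49 log2, between A3 (0.23 log2) and A1 (-0.26 log2). Outliers within a group were not looked for, since each group holds 3 arrays.

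The 18S control probe sets, which the comparisons do not use, read 1.36 log2 higher in the induced array than in the control array of A1 and 0.66 log2 higher in A3.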

How the results depend on the processing

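The count of 0 members called on induction, and of 0 over all probe sets, was the same under 21 alternatives, including the replicate block, the methods' t-test and leaving out arrays or clones (0 to 0). With the replicate block the median change over members was 0.032 log2, and the paired fit changed no call. Leaving out arrays or clones gave medians of -0.020 to 0.070 log2 over members, -0.0082 to 0.086 in complex I, 0.024 to 0.10 in II, -0.033 to 0.087 in III, -0.038 to 0.051 in IV, -0.040 to 0.049 in V and -0.00091 to 0.23 log2 for Cycs. Signs turned for Atp5e (-0.022 log2) and Uqcrc2 (-0.0039 log2) without induced replicate 2 and for Cycs (-0.00091 log2) without induced replicate 1.

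For A3 against the mean of A1 and A4 the 5 calls became 9 after quantile normalization once more, 9 after cyclic loess, 9 with clone as the only term, 10 among probe sets of at least 5 log2, 19 with trend and robust options, 13 at an adjusted p of 0.1, 3 with arrayWeights, 2 with a difference of at least 0.5 log2, and 1 to 4 without single arrays. The F test called 10 with trend and robust options and 1 to 2 without single arrays, and A1 against A4 1 with trend and robust options. The A3 median was 0.074 to 0.17 log2 without single arrays. In complex I it was 0.13 with cyclic loess, 0.16 in induced arrays only and 0.10 to 0.16 without single arrays, and in complex III 0.085 in control arrays only and 0.085 to 0.20 log2 without single arrays. Complexes IV and V gave 0.060 to 0.20 and 0.061 to 0.14 log2 without single arrays.

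A1 against A4 had a median of 0.092 log2 without both the control A4 and induced A1 arrays (chosen after seeing the data). Complex II gave 0.015 over all probe sets and -0.065 to 0.029 without single arrays, complex III -0.0084 to 0.089, complex IV -0.076 in induced arrays only and -0.088 to 0.023 log2. Cycs gave 0.040 with array medians subtracted, 0.0098 with quantile normalization, 5.6e-05 with cyclic loess and -0.062 to 0.10 log2 without single arrays. The cause of these shifts was not tested.

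The members rest on 3 arrays a group and 2 a clone, and no subunit difference of the size seen on induction was called by the tests used. In addition, 17 member probe sets average under 5 log2, below the array medians.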
